A study of Homo sapiens with 12 samples.

Results

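The ligands of the transforming growth factor-beta (TGF-beta) superfamily and their inhibitor follistatin were examined in alveolar rhabdomyosarcoma cells in which the PAX3-FKHR fusion had been knocked down. The 10 genes, TGFB1, TGFB2, TGFB3, BMP2, BMP4, BMP7, GDF15, INHBA, MSTN and FST, were taken as the probes of the array that carry one of these symbols, which gave 15 probes of the 41000 gene probes and 10 of the 23870 gene names on the array. The rule uses no measured value. The cultures compared were 3 forms of Rh30, a human alveolar rhabdomyosarcoma line. KD1 was a stable clone that carries a short hairpin RNA against PAX3-FKHR, CON was a stable clone that carries a non-targeting hairpin, and WT was the untransfected parental line. Both clones were made with the pSUPER.retro.puro vector and selected and kept with 1 μg/mL puromycin, which the WT culture did not receive. All cultures had DMEM with 10% fetal bovine serum for 24 h before RNA was isolated. KD1 and CON are 1 clone each, so the knockdown and the clone cannot be told apart, and neither can the vector with puromycin and the difference of CON from WT.

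RNA from the cultures was compared on 12 arrays, each with an RNA in Cy3 and another in Cy5. The comparisons were KD1 vs CON, KD1 vs WT and WT vs CON, and each had 2 biological replicates that were hybridized again with the dyes exchanged. In all there were 6 RNA extracts, each of them on 4 arrays. The comparisons thus share their extracts and are not independent of each other. The KD1 arrays of each replicate lay on a slide of their own, so that slide and replicate cannot be told apart there, while every replicate value is a ratio within 1 slide. Nothing in the labels says whether the replicates were separate flasks, and the p-values measure the spread between these extracts only. The share of spots well above background was 71.1% to 73.6% in Cy3 and 64.4% to 67.8% in Cy5, and 0 spots were saturated. Precision is limited by the number of RNA extracts, 2 of each culture. Of 8 rhabdomyosarcoma marker genes, 7 (MYOD1, MYOG, DES, MYF5, CDH15, FGFR4 and CHRNG) were well above background in every channel and TFAP2B was so in none. Of 9 marker genes of other cell types, PTPRC and LUM were never well above background, PECAM1, PDGFRB and CD3E were so in every channel, and the log2 of the summed signal of the 11 probes of all 9 genes was 9.89 and 10.48 in KD1, 10.42 and 10.39 in CON, and 10.09 and 10.41 in WT. EPCAM, an epithelial marker, stood apart in WT replicate 2, with a level of 7.36 and 4 of 4 channels well above background, against 1.77 to 1.98 and 0 channels in the 5 other extracts. KRT5, the other epithelial marker, did not, at 2.18 in WT replicate 2 and 2.17 in KD1 replicate 2. LYZ, a myeloid marker, was highest in WT replicate 2 too, at 4.57 with 2 of 4 channels well above background. Of the 11 probes, 4 were highest in that extract. Among these marker probes, 2 to 4 were tested per comparison, and those of EPCAM and LYZ were not among them. None of the probes tested passed limma's test (0 at an unadjusted p under 0.05). None of the 5 PAX3 and FOXO1 probes crosses the fusion point, and those in the parts that the fusion keeps also read the unrearranged genes. One PAX3 probe (chr2:222773025-222773084, minus strand, NCBI36) lies at the 3′ end of the gene, which the fusion lacks, and so checks nothing. The other 4 probes were lower in KD1 in each replicate, with log2 ratios from -0.58 to -0.25 to CON and from -0.79 to -0.14 to WT, and none passed the test (smallest adjusted p of 0.272, with 0 and 1 at an unadjusted p under 0.05).

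TGF-beta superfamily ligands are secreted dimers that bind pairs of type I and type II receptor kinases, which phosphorylate SMAD proteins that then enter the nucleus and act on gene expression. The TGF-betas, the activins and myostatin act mainly through SMAD2 and SMAD3, and the bone morphogenetic proteins (BMPs) through SMAD1, SMAD5 and SMAD9. In skeletal muscle, the tissue whose program rhabdomyosarcoma cells partly follow, TGF-beta and myostatin restrain the differentiation and growth of myoblasts, and follistatin binds activins and myostatin and keeps them from their receptors.

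The sequences shown first are those upstream of TGFB2, BMP4 and FST, whose levels separated 1 culture from both others in both replicates and whose signal sufficed for all 3 comparisons. The levels of MSTN separated WT by a narrow margin, and MSTN was not tested in KD1 vs CON. PAX3-FKHR keeps the paired domain and the homeodomain of PAX3, so the 250 bases before the annotated start were searched on both strands for short letter strings of paired-domain sites (GTTAC or its variant GTTAT, and likewise GTTCC or its variant GTTCT), and for ATTA, the core of homeodomain sites. Capitals mark the matches, which read as the reverse complement where the match is on the other strand. The windows are from RefSeq on GRCh38.p14 and are printed in the direction of the gene. For TGFB2 the window is chr1:218345086-218345335 on the plus strand, for FST it is chr5:53480379-53480628 on the plus strand, and for BMP4 it is the most upstream of 3 annotated starts, chr14:53955051-53955300 on the minus strand.
TGFB2: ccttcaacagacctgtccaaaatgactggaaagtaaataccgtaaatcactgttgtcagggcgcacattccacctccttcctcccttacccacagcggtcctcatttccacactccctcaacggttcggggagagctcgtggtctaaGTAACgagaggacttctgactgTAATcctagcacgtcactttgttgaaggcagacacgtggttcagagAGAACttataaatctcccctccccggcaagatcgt
FST: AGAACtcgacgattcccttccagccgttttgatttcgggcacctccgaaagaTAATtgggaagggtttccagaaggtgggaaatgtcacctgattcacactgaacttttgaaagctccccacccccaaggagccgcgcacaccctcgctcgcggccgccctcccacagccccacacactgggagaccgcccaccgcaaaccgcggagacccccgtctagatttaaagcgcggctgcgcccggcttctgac
BMP4: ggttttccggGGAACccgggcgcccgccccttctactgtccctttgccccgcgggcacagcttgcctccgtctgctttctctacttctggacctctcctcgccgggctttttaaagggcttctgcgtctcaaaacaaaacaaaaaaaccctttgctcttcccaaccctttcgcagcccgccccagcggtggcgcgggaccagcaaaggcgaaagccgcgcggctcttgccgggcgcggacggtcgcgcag
The TGFB2 window holds GTTAC at 103, ATTA at 81 and GTTCT at 35 bases before the start, all on the opposite strand. The FST window holds GTTCT at 250 and ATTA at 198 bases before the start, and the BMP4 window holds GTTCC at 240. These are common letters. A paired-domain string was present in 71.1% of 34943 such windows of all genes (17.7% for GTTAC, 17.1% for GTTAT, 38.6% for GTTCC and 33.5% for GTTCT) and ATTA in 47.5%. Of the 11 windows of the 8 members in the table, 7 held a paired-domain string and 7 held ATTA. BMP2 and BMP7 were not matched. A match is a description of the letters and no evidence of binding.

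Most array probes are 60 bases within 1 stretch of the transcript, and 2 of the 15 member probes cross an intron by their positions on build NCBI36, so that they read spliced RNA. They are shown because the values of TGFB1 rest on the first and because the second can be set beside an unspliced probe of the same gene. The TGFB1 probe lies on the minus strand of chr19:46529982-46539642 and skips 9601 bases, and the TGFB3 probe lies on the minus strand of chr14:75499576-75501735 and skips 2100 bases.
TGFB1: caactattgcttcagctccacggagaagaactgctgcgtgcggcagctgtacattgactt
TGFB3: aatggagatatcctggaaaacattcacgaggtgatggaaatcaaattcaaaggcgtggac

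Values are given in 2 forms. A level is the log2 processed signal of 1 probe in 1 RNA extract, averaged over its 4 arrays after quantile scaling between arrays, and it is compared only with other levels of the same probe. A log2 ratio is the first culture of a comparison over the second on the same array, averaged over a dye-swap pair. A probe was tested where it was brighter, in Cy3 or in Cy5, than 99% of the negative controls on all arrays of that comparison. This limit differed between arrays. As background-subtracted signal it was 40.6 in both dyes on 1 array of KD1 vs CON replicate 1, and at most 13.1 on the WT vs CON arrays. A dim probe could thus be tested in WT vs CON and not in a KD1 comparison. The test was limma with Benjamini-Hochberg adjustment over all probes tested, and the threshold was an adjusted p of 0.05. The plot of levels by extract gives the 10 members.

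**Figure D1:**
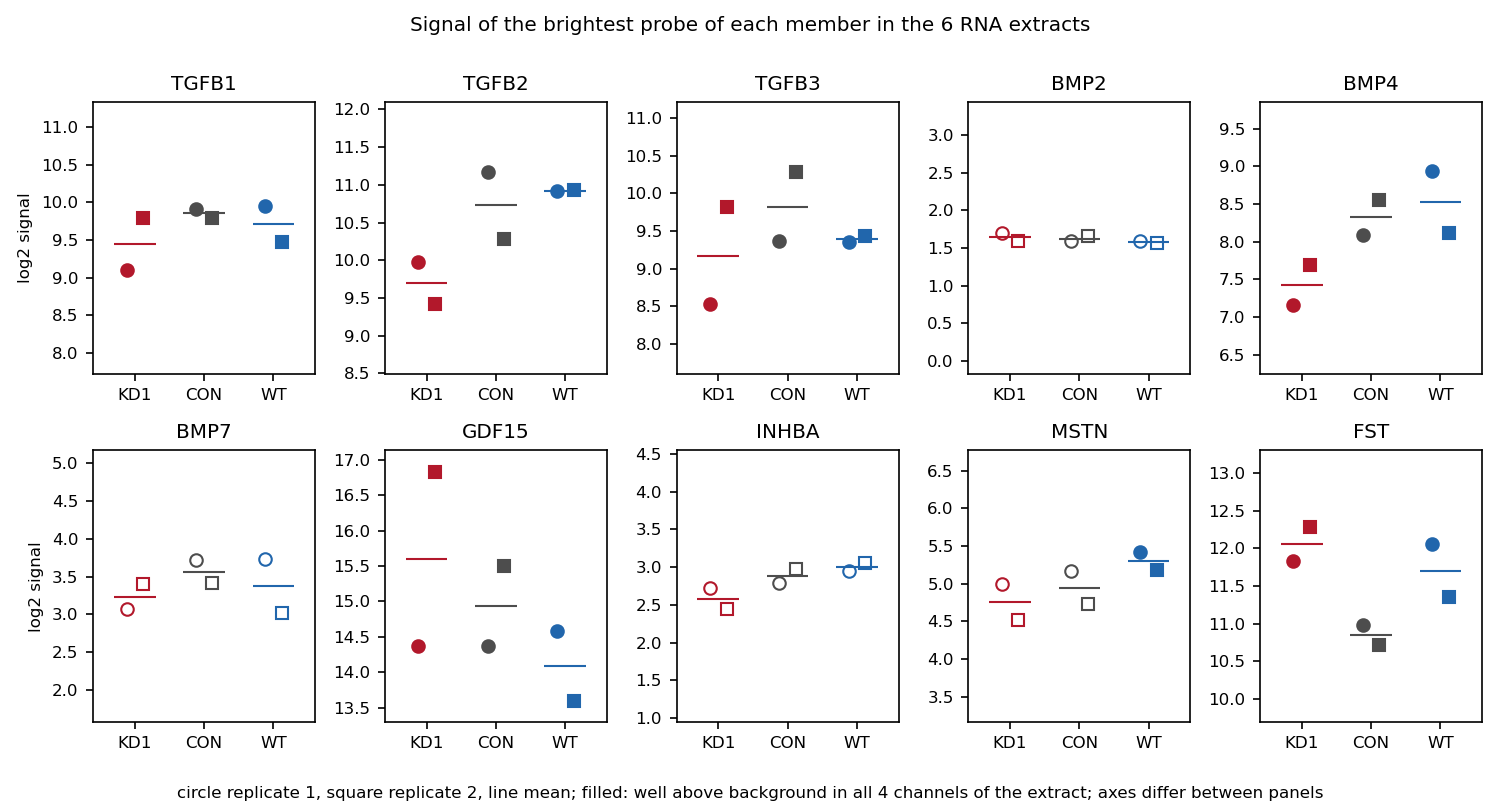
Log2 signal of the brightest probe of each of the 10 members (vertical axes, a scale of its own in each panel) in the 2 extracts of KD1, CON and WT. Circles are replicate 1, squares replicate 2, lines the culture mean, and filled symbols mark extracts well above background on all 4 of their arrays. The KD1 symbols lie below all others for TGFB2 and BMP4, and the CON symbols lie below all others for FST.

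In all, 7 members, TGFB1, TGFB2, TGFB3, BMP4, GDF15, MSTN and FST, had a probe that was tested, and BMP2, BMP7 and INHBA had none. None of the member probes passed the threshold in any comparison. TGFB2, BMP4 and FST had the clearest differences, with TGFB2 and BMP4 lower in KD1 than in both other cultures and FST lower in CON than in both others. In KD1 vs CON, limma called 0 of 6 member probes, beside 396 of 21925 probes on the array (1.81%), and 3 of the 6 had an unadjusted p under 0.05, with 2 lower (9.01% of all probes) and 1 higher (8.21%). In KD1 vs WT it called 0 of 7, beside 272 of 24860 (1.09%), with 2 at an unadjusted p under 0.05, both lower (9.05% of all probes, with 8.16% higher). In WT vs CON it called 0 of 9, beside 377 of 26566 (1.42%), with 4 at an unadjusted p under 0.05, 2 lower (7.99% of all probes) and 2 higher (8.56%). The median log2 ratio over the member probes tested was -0.54, -0.28 and -0.10 in these comparisons, against -0.01, 0.01 and -0.03 over all probes tested. With 2 replicates and 2 residual degrees of freedom, a missed threshold does not show that the levels were equal. The counts depend on the fit: with the arrays centred on their medians in place of the authors' lowess, 2, 2 and 1 member probes passed in these comparisons, and with a dye effect for each slide 2, 1 and 0 passed.

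**Figure D2:**
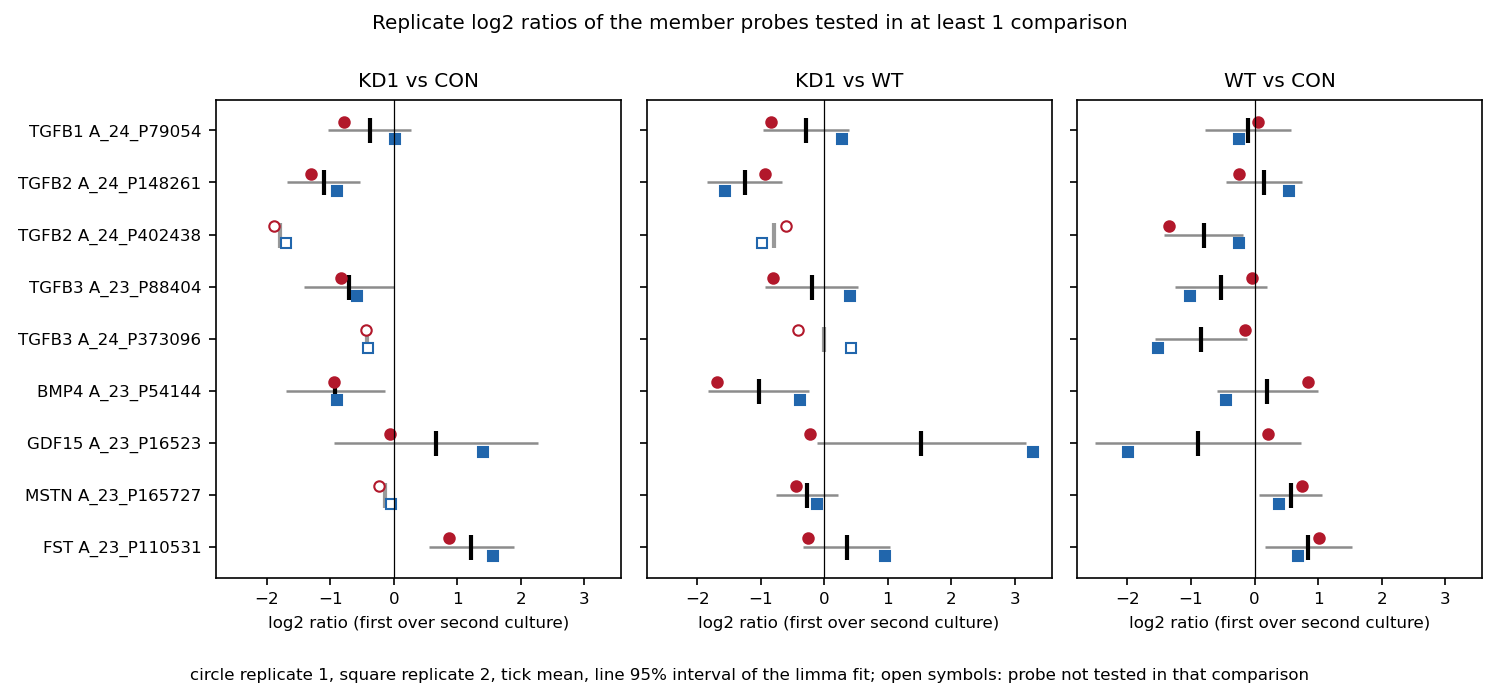
Log2 ratio (horizontal axis) of the 9 member probes tested in at least 1 comparison, for KD1 vs CON, KD1 vs WT and WT vs CON. Points are the 2 replicate values and bars the 95% interval of the limma fit, with open points where the probe was not tested. The intervals of TGFB2 (brighter probe) and BMP4 lie below 0 in both KD1 comparisons, and that of FST lies above 0 in KD1 vs CON and WT vs CON.

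TGFB2 encodes a TGF-beta isoform with wide roles in embryonic development. Its brighter probe (chr1:216683872-216683931, plus strand, NCBI36) had levels of 9.98 and 9.42 in KD1, 11.18 and 10.28 in CON, and 10.91 and 10.93 in WT. Both KD1 extracts lay below the 4 others. Against CON the log2 ratios of KD1 were -1.31 and -0.90, which average to -1.10 ± 0.29 (SD, n = 2) or 2.15-fold lower in KD1, with a 95% interval of -1.68 to -0.53 and a limma adjusted p of 0.0813. Against WT they were -0.94 and -1.56, a mean of -1.25 ± 0.44 (SD, n = 2) or 2.38-fold lower, with an interval of -1.84 to -0.66 and an adjusted p of 0.0753. All 8 KD1 arrays gave a value below 0. In WT vs CON the replicates of TGFB2 were opposite in direction, at -0.24 and 0.54 (mean of 0.15, adjusted p of 0.829). The TGFB2 call depends on the fit. Median centring gives all probes of a comparison 1 standard error, and the median of all probes tested then was -0.24 in KD1 vs CON. With it the TGFB2 ratio to CON was -1.36 (limma adjusted p of 0.00232) and the ratio to WT was -1.22 (0.0129). With a dye effect per slide TGFB2 passed at 0.0274 and 0.0221, in a fit that does not allow for the extracts that comparisons share. Over all alternatives the adjusted p ranged from 0.00232 to 0.618 against CON and from 0.0129 to 0.366 against WT. A dimmer TGFB2 probe (chr1:216681407-216681466, plus strand) had levels of 4.27 and 3.50 in KD1, 6.12 and 4.86 in CON, and 4.91 and 4.65 in WT. The KD1 extracts were lowest here too. Its KD1 ratios of -1.89 and -1.70 to CON and -0.60 and -0.98 to WT were not tested, because the probe missed the limit of the negative controls, and it was below 0 on the same 8 arrays. In WT vs CON it was tested, and both replicates were below 0, at -1.35 and -0.24 (mean of -0.80, interval of -1.42 to -0.18, adjusted p of 0.206), so the TGFB2 probes differed in direction there. When probes were instead kept for being well above background, it passed in KD1 vs CON (-1.80, adjusted p of 0.0254).

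Criteria built after those in the study's methods were applied to single probes: a mean change of at least 2-fold in both KD1 comparisons, 1 direction on every KD1 array, and a signal over the negative control limit in Cy3 or Cy5. This is not the study's own gene selection. They were met by 1 of the 6 member probes that could be judged. This was the brighter TGFB2 probe, lower in KD1, and none was higher. Of 21882 probes judged, 187 (0.855%) met them as lower and 115 (0.526%) as higher. With either replicate taken alone, the TGFB2 probe did not reach 2-fold in both comparisons. The study's own list of genes lower in KD1 does not hold TGFB2. TGFB2 and BMP4 were also the 2 of 6 tested members with both KD1 levels below the 4 other levels, which 10.4% of all probes showed, and none had both KD1 levels above the others (10.3% of all probes). The dimmer TGFB2 probe is not among the 6. TGFB2 and BMP4 were below 0 on all 8 KD1 arrays, as 8.36% of all probes were.

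**Figure D3:**
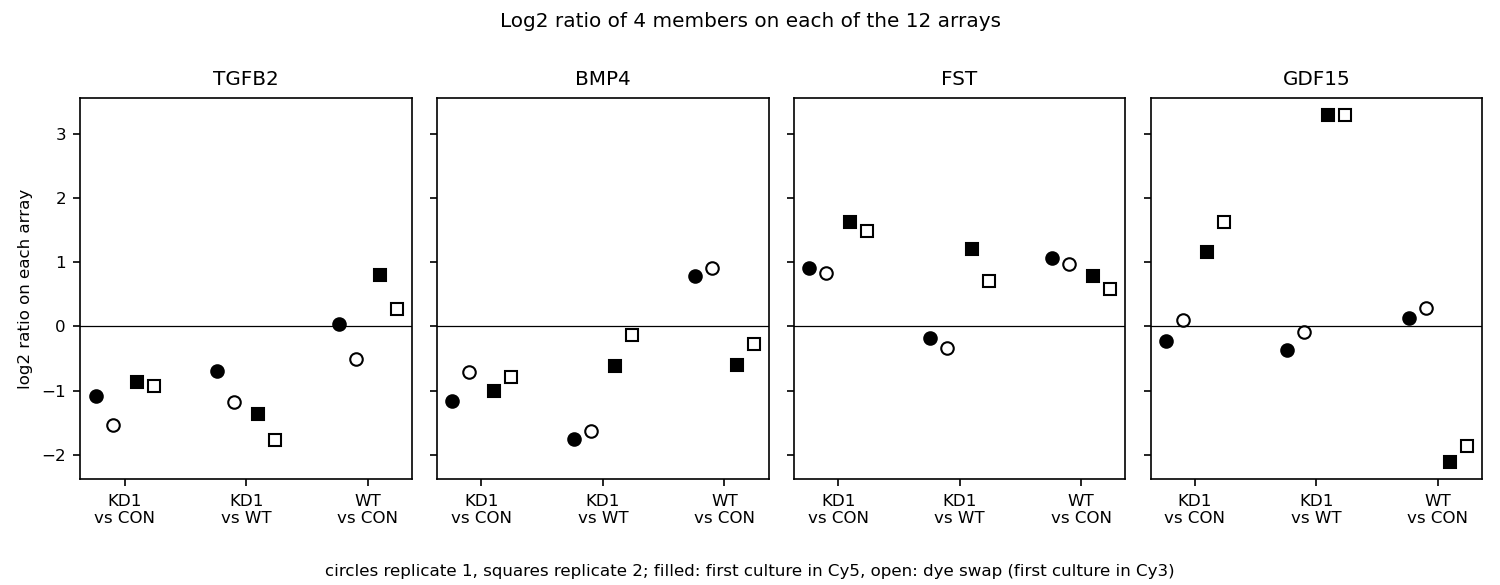
Log2 ratio of TGFB2, BMP4, FST and GDF15 (brightest probes, vertical axes) on each of the 12 arrays, grouped by comparison and replicate. Filled symbols have the first culture in Cy5 and open symbols are the dye swap. For GDF15 in KD1 vs WT the arrays of replicate 1 lie at -0.36 and -0.09 and both arrays of replicate 2 at 3.29.

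TGFB1, the isoform most widely expressed in adult tissue, had levels of 9.10 and 9.79 in KD1, 9.91 and 9.79 in CON, and 9.96 and 9.47 in WT on its intron-crossing probe, which is printed on the array as 10 spots. KD1 replicate 1 was the lowest extract, and KD1 replicate 2 lay among those of the other cultures. The log2 ratios of KD1 were -0.78 and 0.02 to CON and -0.84 and 0.27 to WT, so the replicates differed in direction (means of -0.38 and -0.28, adjusted p of 0.556 and 0.670). In WT vs CON they were 0.05 and -0.24 (adjusted p of 0.906). The intervals of these ratios were -1.04 to 0.28, -0.96 to 0.39 and -0.77 to 0.58, in the order given.

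TGFB3, the third isoform, had levels of 8.54 and 9.81 in KD1, 9.37 and 10.28 in CON, and 9.35 and 9.43 in WT on its brighter probe (chr14:75494657-75494716, minus strand, NCBI36). The cultures overlapped, and replicate 2 was above replicate 1 in each of them. Within each replicate KD1 was below CON, with ratios of -0.83 and -0.57 and a value below 0 on 4 of 4 arrays (mean of -0.70 ± 0.18, SD, n = 2, interval of -1.41 to 0.01, adjusted p of 0.297). Against WT the replicates went opposite ways, at -0.81 and 0.41 (adjusted p of 0.796), and in WT vs CON they were -0.03 and -1.02 (adjusted p of 0.443). The 2 dye-swap arrays of replicate 2 in KD1 vs WT disagreed, at -0.33 and 1.15, so 3 of 4 arrays were below 0. The intron-crossing TGFB3 probe had the same order of extracts within KD1 and CON, with levels of 4.25 and 5.42 in KD1, 4.80 and 5.74 in CON, and 4.61 and 4.92 in WT. Its ratio in WT vs CON was -0.16 and -1.52 (mean of -0.84, adjusted p of 0.245). The mean ratios of KD1 on this probe, -0.42 to CON and 0.00 to WT, were not tested, because it missed the limit of the negative controls there. In KD1 vs WT its replicate 2 arrays disagreed as well, at -0.84 and 1.67. The probe was well above background in 7 of 8 channels of each culture.

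BMP4 signals through SMAD1, SMAD5 and SMAD9 and takes part in patterning the embryonic muscle precursors. Its probe (chr14:53487068-53487127, minus strand, NCBI36) had levels of 7.16 and 7.69 in KD1, 8.09 and 8.56 in CON, and 8.94 and 8.11 in WT. Both KD1 extracts lay below the 4 others, while CON and WT overlapped. The ratio to CON was -0.94 and -0.90, which average to -0.92 ± 0.03 (SD, n = 2) or 1.89-fold lower in KD1, with an interval of -1.70 to -0.14 and an adjusted p of 0.219. In KD1 vs WT the replicates were -1.69 and -0.37, a mean of -1.03 ± 0.93 (SD, n = 2), with an interval of -1.83 to -0.23 and an adjusted p of 0.196. With normexp and loess these KD1 ratios were -0.50 and -0.70. BMP4 in WT vs CON was 0.84 and -0.44, opposite in direction (adjusted p of 0.825). With median centring, which gives all probes 1 standard error, BMP4 passed in KD1 vs CON (-1.15, limma adjusted p of 0.0162). With normexp and loess the adjusted p there was 0.441.

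BMP2 and BMP7, the other bone morphogenetic proteins of the list, were at or near background. The BMP2 probe was well above background in 0 of 8 channels of each culture, with levels between 1.56 and 1.71. BMP7 has 3 probes, of which one was never well above background and another was so in 1, 2 and 2 of 8 channels of KD1, CON and WT. The third BMP7 probe (chr20:55178962-55179021, minus strand) stood out in a single extract. Its level was 5.11 in WT replicate 2, well above background in 4 of 4 channels, and between 1.86 and 2.83 in the 5 other extracts, where it was so in none. The other BMP7 probes did not show this, with levels in WT replicate 2 of 3.02 and 2.14, and no BMP7 probe was tested in any comparison. EPCAM stood apart in the same extract, while KRT5, the other epithelial marker, did not. The part of EPCAM in the BMP7 value was not tested.

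GDF15 encodes a distant member of the superfamily that is induced by cellular stress and signals through its own receptor, GFRAL. Its probe (chr19:18360890-18360949, plus strand, NCBI36) had levels of 14.36 and 16.83 in KD1, 14.37 and 15.50 in CON, and 14.59 and 13.60 in WT. Replicate 2 of KD1 was the highest extract, replicate 2 of WT was the lowest, and the replicate 1 extracts of all cultures lay close together. The log2 ratios of KD1 were -0.07 and 1.40 to CON and -0.23 and 3.29 to WT, and those of WT to CON were 0.21 and -1.99. The 2 arrays of each dye-swap pair differed by less than the replicates did, and in KD1 vs WT both arrays of replicate 2 gave 3.29. In the loop of the 3 comparisons, the ratios of a replicate added up to within -0.05 (replicate 1) and 0.09 (replicate 2) of 0. The means of 0.67, 1.53 and -0.89 had adjusted p of 0.699, 0.321 and 0.577, and the interval in KD1 vs WT was -0.11 to 3.17. Without KD1 replicate 1, GDF15 passed in KD1 vs WT (3.29, adjusted p of 0.0189), a value of 1 KD1 extract that is assumed to vary like the other cultures, and without replicate 2 the ratio was -0.23. With median centring, which gives all probes 1 standard error, it passed in KD1 vs WT (1.68, adjusted p of 7.24e-05) and in WT vs CON (-1.14, 0.024), although the replicates there were again -0.01 and 3.36, and -0.09 and -2.19. Over all alternatives the adjusted p ranged from 7.24e-05 to 0.898 in KD1 vs WT and from 0.024 to 0.967 in WT vs CON.

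INHBA encodes the subunit of activin A, and MSTN encodes myostatin, the inhibitor of muscle mass. Both INHBA probes were well above background in 0 of 8 channels of every culture. The MSTN probe (chr2:190628752-190628811, minus strand, NCBI36) was well above background in 6, 5 and 8 of 8 channels of KD1, CON and WT, at levels of 4.9998 and 4.52, 5.17 and 4.73, and 5.41 and 5.18. Both WT levels lay above the 4 others, the lower one by a narrow margin, as they did for 9.97% of all probes tested in both WT comparisons. MSTN in WT vs CON was 0.75 and 0.39, a mean of 0.57 ± 0.26 (SD, n = 2) with an interval of 0.07 to 1.06 and an adjusted p of 0.248, and 3 of 4 arrays were above 0. With normexp background correction and loess this ratio was 0.079. In KD1 vs WT it was -0.45 and -0.11 (adjusted p of 0.543), and its values of -0.24 and -0.05 in KD1 vs CON were not tested. MYOG, which encodes the differentiation factor myogenin, passed the test in WT vs CON as lower in WT (log2 ratios of -1.73 and -1.81 on 2 probes). MYF5, of the same marker list, went the other way without passing, with levels of 13.11 and 13.01 in WT and 11.30 and 11.84 in CON. MYOD1 overlapped, at 14.59 and 14.46 in WT and 14.47 and 14.66 in CON. The part of these genes in the MSTN values was not tested.

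FST encodes follistatin. Its probe (chr5:52816594-52816653, plus strand, NCBI36) had levels of 11.83 and 12.28 in KD1, 10.98 and 10.72 in CON, and 12.06 and 11.35 in WT. Both CON extracts lay below the 4 others, as they did for 11.0% of all probes tested in both KD1 comparisons, while KD1 and WT overlapped. The log2 ratio of KD1 to CON was 0.87 and 1.56, which average to 1.21 ± 0.49 (SD, n = 2) or 2.32-fold higher in KD1, with an interval of 0.55 to 1.88, an adjusted p of 0.0905 and a value above 0 on 4 of 4 arrays. FST was likewise higher in WT than in CON on 4 of 4 arrays, at 1.02 and 0.68 (mean of 0.85 ± 0.24, SD, n = 2, interval of 0.16 to 1.53, adjusted p of 0.218). Between KD1 and WT the replicates went opposite ways, at -0.26 and 0.96 (mean of 0.35, adjusted p of 0.589). FST thus differed by a mean of 1.21 between the 2 clones and of 0.85 between CON and the parental line. These 2 comparisons share the CON extracts. The fit with a dye effect per slide put FST past the threshold in KD1 vs CON (limma adjusted p of 0.0411). That fit does not allow for the extracts that comparisons share. With normexp and loess the adjusted p was 0.164. Leaving out KD1 replicate 1 gave 1.56, which is the value of replicate 2 alone.

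The other genes of the pathway were counted over lists of receptors, SMADs, antagonists, further ligands and response genes. Over the 5 lists, 4 of 91 probes tested passed in KD1 vs CON (4.4%, against 1.81% of all probes), 6 of 103 in KD1 vs WT (5.83%, against 1.09%) and 5 of 109 in WT vs CON (4.59%, against 1.42%). Some genes count with 2 probes: SMAD3 in KD1 vs CON, BMPR1B and SMAD9 in KD1 vs WT, and FBN2 in WT vs CON. The lists were chosen with earlier results of these data known, so these shares are a description and no evidence of an excess. The medians of the lists were within -0.63 and 0.24 on the log2 ratio scale. The plot of the pathway lists gives every probe tested.

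**Figure D4:**
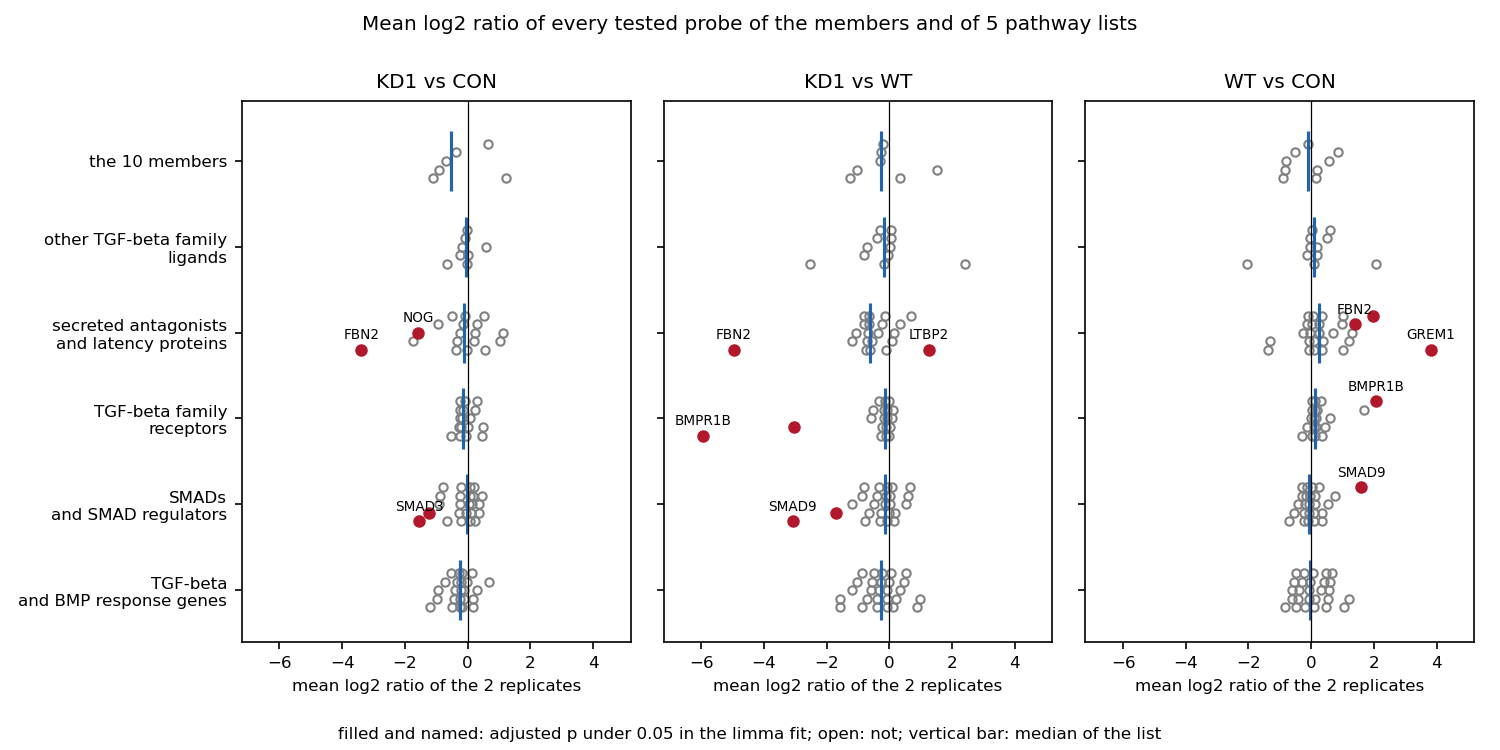
Mean log2 ratio (horizontal axis) of each probe tested of the members and of 5 lists of pathway genes in KD1 vs CON, KD1 vs WT and WT vs CON. Filled, named points have a limma adjusted p under 0.05 and blue bars are the list medians. No member probe is filled, and the filled points farthest from 0 are BMPR1B and FBN2 in KD1 vs WT.

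Among 14 receptor genes, none of 17 probes tested passed in KD1 vs CON (1 at an unadjusted limma p under 0.05, beside 17.2% of all probes). BMPR1B passed as the only receptor gene in KD1 vs WT (19 probes tested) and in WT vs CON (20 tested). BMPR1B encodes a type I receptor of the BMPs. Its level on the strongest of 3 probes was 2.08 and 3.04 in KD1, well above background in 0 of 8 channels, 5.95 and 7.30 in CON, and 8.69 and 8.68 in WT. BMPR1B was thus at least 29.3-fold lower in KD1 than in WT when KD1 is set at the limit of detection (adjusted p of 0.000363) and, untested, at least 7.02-fold below CON. WT exceeded CON by 2.08 on the log2 scale (adjusted p of 0.0275). A further BMPR1B probe was lower by the same test in KD1 vs WT (-3.04, adjusted p of 0.0277), where KD1 was well above background in 2 of 8 channels. The study drew its own list of genes lower in KD1, which holds BMPR1B and FBN2, from these same arrays, so these values are no independent evidence.

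Of 15 genes for SMADs and their regulators, SMAD3, through which TGF-betas and activins signal, passed as lower in KD1 than in CON on both of its probes (-1.55, adjusted p of 0.0123, and -1.23, adjusted p of 0.0269). Its level on the first was 8.80 and 9.12 in KD1, 10.29 and 10.64 in CON, and 9.69 and 9.83 in WT, with WT between the clones. SMAD3 in KD1 vs WT was -0.80 and -0.66 on the same probes (adjusted p of 0.113 and 0.156). SMAD9, a mediator of BMP signals, passed as lower in KD1 than in WT on both probes (-1.70, adjusted p of 0.0245, and -3.09, adjusted p of 0.0094, where KD1 was well above background in 3 of 8 channels) and as higher in WT than in CON on the one tested (1.59, adjusted p of 0.0275). These were the SMAD genes called, from 24, 25 and 25 probes tested, which stand for 14, 15 and 15 genes. Of these probes 5, 11 and 5 had an unadjusted limma p under 0.05 (17.2%, 17.2% and 16.5% of all probes).

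Of 24 genes for secreted antagonists and proteins that hold latent TGF-beta, 15, 16 and 18 were tested in the 3 comparisons. They had 18, 21 and 26 probes tested. Of these probes 6, 8 and 10 had an unadjusted limma p under 0.05 (17.2%, 17.2% and 16.5% of all probes). The list was chosen with earlier results of these data known, so these counts are a description. FBN2, the microfibril protein fibrillin-2, was on its brightest probe lower in KD1 than in CON (-3.38, adjusted p of 0.00124) and WT (-4.96, adjusted p of 0.000363) and higher in WT than in CON (1.97, adjusted p of 0.0189). NOG, which encodes the BMP antagonist noggin, was lower in KD1 than in CON (-1.57, adjusted p of 0.0481), with levels of 6.30 and 5.62 in KD1, 7.65 and 7.25 in CON, and 5.82 and 6.24 in WT, so that CON stood above both others. GREM1, the BMP antagonist gremlin, was higher in WT than in CON (3.81, adjusted p of 0.00302) and was well above background in 2 of 8 CON channels. LTBP2, of the latent TGF-beta binding protein family, was higher in KD1 than in WT on 1 of 4 probes (1.26, adjusted p of 0.0479), and its other probes gave 1.28, 0.25 and 0.68.

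None of the probes of 21 further ligands passed, with 8, 11 and 11 tested by limma and 1, 4 and 4 at an unadjusted p under 0.05. Of 17 TGF-beta and BMP response genes counted, none passed in any comparison by limma, with 24, 27 and 27 probes tested and 2, 8 and 6 of them at an unadjusted p under 0.05 (17.2%, 17.2% and 16.5% of all probes). Of the 17 probe and comparison pairs called in the pathway and marker lists, none passed after normexp background correction and loess, 17 passed with median centring and 11 with a dye effect per slide. The last 2 fits have the limits given for TGFB2.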

How the data were processed

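The authors extracted each array with Agilent Feature Extraction 10.5.1.1 (per the labels) and deposited, per spot, linear intensity values after background subtraction and lowess normalization, and a log10 ratio of red over green. They also deposited a series table of the same ratios on the log2 scale, and those differed from the scanner files by at most 5.35e-06, with 0 columns left unmatched.

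From the processed intensities, log2 ratios were computed, turned to the first culture, and averaged over spots without outlier flags (95 to 188 such spots left out per array) and over each dye-swap pair. limma 3.58.1 in R 4.3.3 was fitted to the 6 replicate values, and its residual degrees of freedom were set at 2, since the 3 comparisons of a replicate are built from 3 extracts. The fit was tested on simulated data. Python 3.11.15, numpy 2.4.6, pandas 2.3.3, matplotlib 3.10.9 and data.table version 1.17.8 were also used. All member probes are named, PAX3 and FOXO1 serve as the knockdown check, and list genes are named where a probe passed, up to 4 per list. A gene of the response list is not reported here and was left out of its counts. Genes nearest in pattern were to be named for members past the threshold, and there were none. Members and lists were chosen with earlier results of these data known. Probe positions are those of the files (NCBI36), and exon and UTR annotation was not used here. Alternatives were normexp (offset 50) with loess, median centring, the series table, separate channels, a replicate block, a dye effect per slide, other filters, the mean over a gene's probes and left-out replicates. Median centring used background-subtracted signals, with those below the negative control limit set to that limit. Leaving out single extracts was added after the data were seen.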

Additional observations from a re-analysis of the deposited data

How the results depend on the processing

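None of the member probes passed in any comparison with normexp and loess, the series table, separate channels without the replicate block, extract levels with the replicate block, or no filter on dim probes. Median centring, with 1 standard error for all probes, gave 2, 2 and 1 member probes (KD1 vs CON, KD1 vs WT and WT vs CON). The dye effect per slide, which does not allow for shared extracts, gave 2, 1 and 0. The filter on probes well above background gave 1, 0 and 0. Leaving out 1 extract at a time gave 0 to 1, 0 to 1 and 0 to 0. Over all probes, in the same order, the counts were 26, 1 and 2 with normexp and loess, 1017, 962 and 1028 with median centring, 202, 126 and 114 with separate channels and no replicate block, 161, 111 and 131 with the replicate block, 1006, 1019 and 1092 with the dye effect per slide, and 253, 185 and 200 without a filter, and they ranged from 114 to 479, 21 to 543 and 4 to 955 when 1 extract was left out. The extracts that moved a count by over 1.5 times were CON replicates 1 and 2 (187 and 114) and KD1 replicate 2 (261) in KD1 vs CON, WT replicates 1 and 2 (21 and 37) and KD1 replicate 1 (543) in KD1 vs WT, and all in WT vs CON (955 and 950 without a KD1, 110 and 108 without a CON, 4 and 5 without a WT extract). Of the 17 calls in the lists, 6 to 15 passed with 1 extract left out. Median centring moved the median of all probes tested to -0.24, 0.04 and -0.18. It moved the share of calls that were lower from 56.8%, 73.2% and 43.5% to 76.5%, 52.8% and 60.9%. With 1 replicate there is no test, so counts without a whole replicate are not given. The criteria built after the study's methods, which TGFB2 met, were met by 0 member probes with either replicate alone (0 to 0).

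The direction turned for TGFB2 in WT vs CON with median centring (-0.058) and with the mean over its probes (-0.32), as did BMP7 there with the mean over its probes (0.19). With 1 replicate or extract left out, some ratios ranged across 0: TGFB1 from -0.78 to 0.020 (KD1 vs CON), -0.84 to 0.27 (KD1 vs WT) and -0.24 to 0.048 (WT vs CON), TGFB2 from -0.24 to 0.54 (WT vs CON), TGFB3 from -0.81 to 0.41 (KD1 vs WT), BMP4 from -0.44 to 0.84 (WT vs CON), GDF15 from -0.065 to 1.40, -0.23 to 3.29 and -1.99 to 0.21, and FST from -0.26 to 0.96 (KD1 vs WT). The cause was not tested. TGFB2 and BMP4 kept their direction in both KD1 comparisons, and FST in KD1 vs CON, under every alternative run. Others did so too, such as TGFB3 in KD1 vs CON and FST in WT vs CON. The series table, the dye effect per slide and the filters leave these ratios as they are. They could therefore not turn a direction, and leaving out a replicate returns the value of the other.

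Same-numbered extracts deviated together in KD1 and CON (correlation of 0.54 over 24193 probes) and not in KD1 and WT (-0.06) or CON and WT (-0.01), so the numbers went together for KD1 and CON and not for the pairs with WT. With the replicate block 0 member probes passed. Dim probes and 2 replicates set the limit of what could be seen.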
